A study of Mus musculus with 21 samples.

Results

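The genes of the Nodal pathway followed here are Nodal, Gdf3, Tdgf1, Acvr2b, Smad2, Foxh1, Lefty1, Lefty2 and Skil. They were taken by symbol from a table of log2 expression values. All 9 were among its 20900 genes, and all 9 were among the 14666 that passed the filter on low values and were tested. The cells were E14 embryonic stem cells of the mouse 129 strain, grown in serum with LIF, the cytokine that holds such cells in the pluripotent state. They received BMH-21 or CX-5461, both inhibitors of RNA polymerase I, the enzyme that transcribes the ribosomal RNA genes, each at 1 µM for 2, 4 or 8 h in fresh medium. Untreated cells at 0 h were the control for both inhibitors, and no group was kept in fresh medium without inhibitor for 2, 4 or 8 h. These 7 groups of 3 libraries each were made from poly(A) RNA, the 21 libraries held between 46604397 and 62812641 reads, and nothing in the labels says whether replicates came from separate cultures, so the p-values measure the spread between libraries, which may be technical.

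Nodal is a secreted ligand of the TGF-β family that acts through type I and type II activin receptors together with an EGF-CFC coreceptor, and its receptors phosphorylate SMAD2 and SMAD3. These enter the nucleus with SMAD4 and act with DNA-binding partners such as FOXH1, and among the targets are Nodal itself and the Lefty genes, whose products are secreted antagonists of Nodal. Pluripotent mouse cells are known to express the ligand, the coreceptor and the Lefty genes, and in the embryo the pathway patterns the epiblast and induces mesendoderm.

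The ligand genes Nodal (ENSMUSG00000037171.6) and Gdf3 (ENSMUSG00000030117.5) lie in GRCm38 at chr10:61417972-61425338 on the plus strand and chr6:122605403-122610087 on the minus strand. Tdgf1 (chr9:110939603-110946158, minus strand) and Acvr2b (chr9:119402118-119434995, plus strand) share chromosome 9. Smad2 lies at chr18:76241580-76310963 (plus strand), Foxh1 at chr15:76668225-76669948 (minus strand) and Skil at chr3:31095058-31122577 (plus strand). All 9 are protein-coding genes in GENCODE M21.

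Per length, the most abundant of the 9 in control cells was Tdgf1, with a mean log2 level per kilobase of 8.49. Gdf3 (5.84), Lefty2 (5.67), Foxh1 (5.66), Lefty1 (5.32) and Nodal (5.00) followed on that scale, then Skil (4.39), Smad2 (3.23) and Acvr2b (2.21). All other levels here are log2 values as deposited, which carry no length correction, so each gene is compared only with itself. They rest on many reads: in control libraries Nodal had between 2996 and 3285.

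Lefty1 and Lefty2 are neighbours on chromosome 1 and near-copies of each other, which bears on how their reads can be told apart. Their coding sequences in the reference (GENCODE M21, GRCm38) were both 1104 bases long and 91.85% identical, with 90 differences. Coding exon 1 held 56 of these in 250 bases, against 14 in 247 bases of exon 2, 5 in 246 of exon 3 and 15 in 361 of exon 4. Of the stretches of 100 bases in the Lefty1 transcript, 4.8% also occurred in Lefty2, and of stretches of 50 bases 17.89% did. Because the counting program is not given in the sources used here, how reads from such stretches were shared between the 2 genes is uncertain. The stretch of coding exon 1 shown here is the part where the genes differ most, with the 34 differing bases of 120 in capitals, read 5′ to 3′ on the plus strand at chr1:180935155-180935274 for Lefty1 and chr1:180893229-180893348 for Lefty2.
Lefty1: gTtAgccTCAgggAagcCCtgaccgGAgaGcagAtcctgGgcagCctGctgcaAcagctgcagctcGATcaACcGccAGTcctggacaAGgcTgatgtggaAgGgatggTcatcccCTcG
Lefty2: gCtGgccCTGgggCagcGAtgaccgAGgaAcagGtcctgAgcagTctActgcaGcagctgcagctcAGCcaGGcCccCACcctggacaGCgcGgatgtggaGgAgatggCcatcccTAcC

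The deposited scaling touches every comparison at 8 h. Each library's effective size differed from its total reads by a factor of 0.832 to 1.38. On the log2 scale, the median difference from control over all tested genes at 8 h was -0.40 with BMH-21 and 0.11 with CX-5461. Differences are therefore also given after centring, meaning that each library's own median over the tested genes was subtracted, for the calls and directions that this moved. After centring these median differences were -0.19 and -0.11, so a downward shift at 8 h remained in the centred differences. Median-ratio factors, which size each library by the median ratio of its reads to each gene's geometric mean, gave -0.04 and -0.01. Changes called here had an adjusted p under 0.05 (limma, Benjamini-Hochberg over the 14666 genes).

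Nodal rose about 2-fold within 2 h of either inhibitor. Its log2 levels in the 3 control libraries were 6.13, 6.09 and 5.98. With BMH-21 they were 7.08, 7.26 and 7.23 at 2 h, 7.30, 7.10 and 7.18 at 4 h, and 6.73, 6.58 and 6.62 at 8 h. With CX-5461 they were 7.26, 7.03 and 7.04 at 2 h, 7.11, 7.27 and 7.05 at 4 h, and 7.07, 7.03 and 7.07 at 8 h. All 18 treated libraries stood above all 3 control libraries, and the 3 BMH-21 libraries at 8 h stood between the control and the other 15. Against control, Nodal was 2.18-fold higher with BMH-21 at 2 h (log2 difference 1.12, SE 0.10, limma adjusted p = 1.5e-17) and 2.06-fold higher with CX-5461 at 2 h (1.04, SE 0.10, adjusted p = 8.3e-16). At 4 h the differences were 1.12 with BMH-21 and 1.07 with CX-5461 (adjusted p = 1.6e-18 and 2.7e-17). At 8 h they were 0.57 with BMH-21 and 0.99 with CX-5461 (adjusted p = 4.1e-07 and 3.5e-15), or 0.79 and 0.77 after centring. The step from 4 to 8 h was a fall with BMH-21 of -0.55 (adjusted p = 3.1e-06; -0.49 after centring). With CX-5461 the same step was -0.09 as deposited (adjusted p = 0.45) and -0.46 after centring (adjusted p = 3.8e-09). Whether the 2 inhibitors differed at 8 h thus rested on the scaling: BMH-21 was lower by -0.41 as deposited (adjusted p = 0.00023) and differed by 0.02 after centring (adjusted p = 0.75). In order of mean level, the control was lowest, then BMH-21 at 8 h, each apart from the next, and the other 5 groups overlapped with their neighbours.

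**Figure D1:**
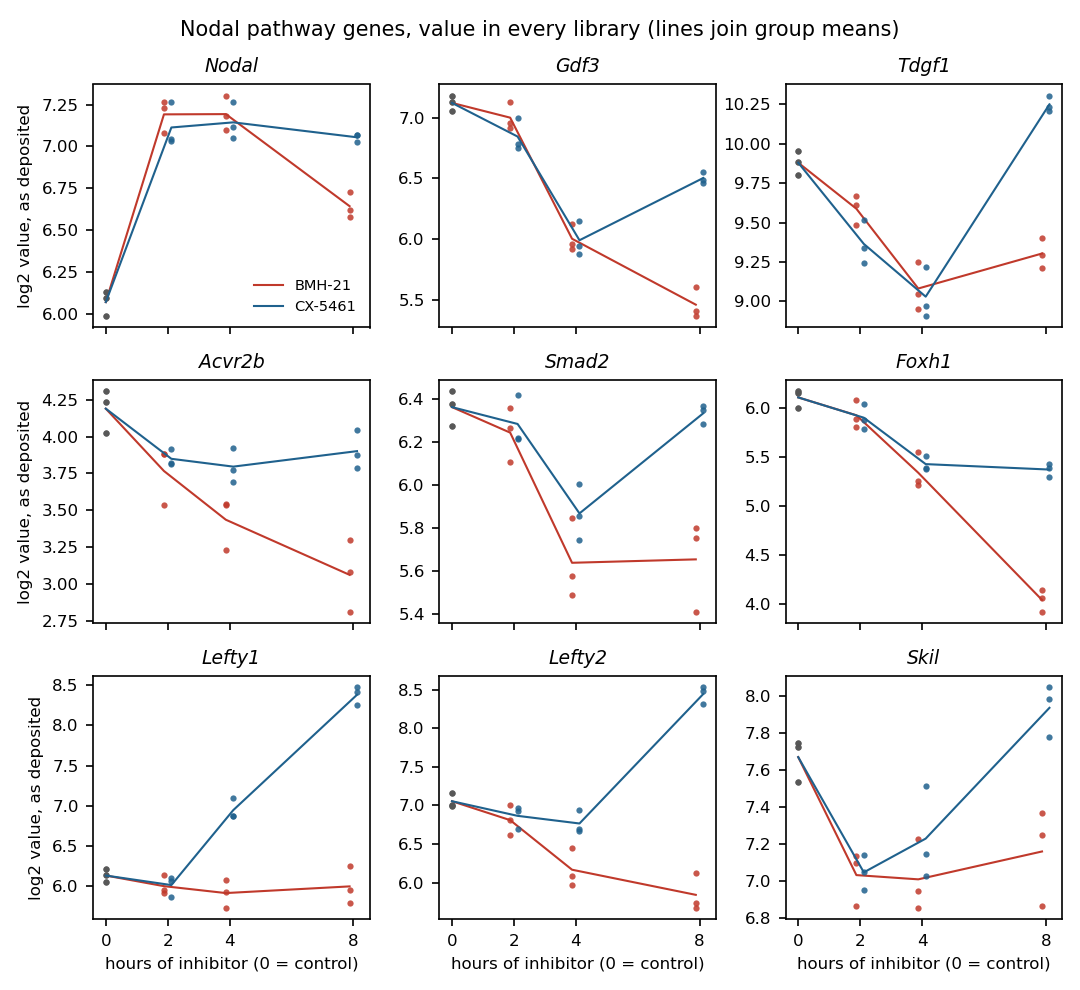
Log2 level as deposited (vertical axis) of each of the 9 genes in all 21 libraries, against time of treatment in hours, with points for libraries and lines through the group means. Nodal lies higher in every treated library than in the 3 control libraries, whereas Lefty1 and Lefty2 part between the inhibitors, reaching means of 8.38 and 8.44 with CX-5461 at 8 h.

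Gdf3, a TGF-β family ligand that also uses the Nodal receptors and coreceptor, went the other way from 4 h on. In control libraries its levels were 7.18, 7.13 and 7.06. BMH-21 libraries had 6.92, 7.13 and 6.95 at 2 h, 6.13, 5.92 and 5.96 at 4 h, and 5.61, 5.36 and 5.41 at 8 h. CX-5461 libraries had 7.001, 6.78 and 6.75 at 2 h, 5.95, 6.15 and 5.87 at 4 h, and 6.49, 6.46 and 6.56 at 8 h. Treated libraries were below all control libraries at 4 and 8 h with no overlap, and BMH-21 libraries at 8 h were the lowest of all 21. Gdf3 fell to 0.461 of control with BMH-21 at 4 h (log2 difference -1.12, SE 0.11, limma adjusted p = 8.3e-18) and to 0.457 with CX-5461 (-1.13, adjusted p = 5.6e-18). By 8 h the difference had grown to -1.66 with BMH-21 (adjusted p = 6.6e-30) and was -0.62 with CX-5461 (adjusted p = 3.2e-07; -0.83 after centring). Between 4 and 8 h it fell further with BMH-21 (-0.54, adjusted p = 6.6e-06) and rose with CX-5461 (0.51, adjusted p = 2e-05), the latter by 0.14 after centring. At 2 h the BMH-21 difference of -0.12 missed the threshold (adjusted p = 0.49). The CX-5461 difference at 2 h was -0.28 (adjusted p = 0.041), or -0.13 after centring and -0.09, not called, with median-ratio factors (adjusted p = 0.15). This call was also lost without control replicate 1 (-0.25) or 2 (-0.27) and without CX-5461 2 h replicate 2 (-0.25) or 3 (-0.23).

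Tdgf1 encodes Cripto, the EGF-CFC coreceptor that Nodal and Gdf3 need. Its control levels were 9.95, 9.89 and 9.80. With BMH-21 they were 9.48, 9.67 and 9.61 at 2 h, 9.25, 8.95 and 9.04 at 4 h, and 9.40, 9.21 and 9.29 at 8 h. With CX-5461 they were 9.52, 9.24 and 9.34 at 2 h, 8.90, 9.22 and 8.97 at 4 h, and 10.31, 10.21 and 10.23 at 8 h. All libraries of both inhibitors at 2 and 4 h were below control, and at 8 h BMH-21 libraries were still below it while CX-5461 libraries were above it. The log2 difference from control was -0.80 with BMH-21 and -0.85 with CX-5461 at 4 h (SE 0.10, limma adjusted p = 5.1e-12 and 4.4e-13). At 8 h it was -0.58 with BMH-21 (adjusted p = 1.3e-07) and 0.37 with CX-5461 (adjusted p = 0.0011), or -0.36 and 0.15 after centring. From 4 to 8 h Tdgf1 rose 2.33-fold with CX-5461 (log2 difference 1.22, adjusted p = 1e-20; 0.85 after centring), whereas the BMH-21 step of 0.22 missed the threshold as deposited and was called after centring (0.28, adjusted p = 4.4e-07). At 2 h it fell with CX-5461 (-0.52, adjusted p = 1.9e-05). The 2 h difference with BMH-21 was -0.29 (adjusted p = 0.025), a call lost in 4 of 6 fits that left out 1 library: without BMH-21 2 h replicate 1 (-0.24) or 3 (-0.30) and without control replicate 1 (-0.26) or 2 (-0.29). The reference annotates 2 processed pseudogenes of Tdgf1, Tdgf1-ps1 and Tdgf1-ps2, and how their reads were counted is not given in the sources used here.

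Acvr2b, a type II receptor for activins and Nodal, was the least abundant of the 9 per length. Its levels were 4.24, 4.31 and 4.02 in control libraries. BMH-21 libraries had 3.54, 3.88 and 3.88 at 2 h, 3.54, 3.54 and 3.23 at 4 h, and 3.30, 2.81 and 3.08 at 8 h. CX-5461 libraries had 3.91, 3.82 and 3.81 at 2 h, 3.69, 3.92 and 3.77 at 4 h, and 4.05, 3.87 and 3.79 at 8 h. BMH-21 libraries were below control at every time, and those of CX-5461 at 8 h overlapped with control. Acvr2b fell with BMH-21 by -0.75 at 4 h and -1.13 at 8 h (SE 0.12, limma adjusted p = 2.7e-08 and 2.3e-15), and with CX-5461 by -0.39 at 4 h (adjusted p = 0.0028). The last of these was -0.23 after centring and -0.14, not called, with median-ratio factors (adjusted p = 0.12). At 2 h the difference was -0.42 with BMH-21 (adjusted p = 0.0057), lost without BMH-21 2 h replicate 1 (-0.31) or control replicate 2 (-0.36). With CX-5461 it was -0.34 at 2 h (adjusted p = 0.027) and -0.29 at 8 h (adjusted p = 0.04), and each of these calls was lost in 4 of 6 fits that left out 1 library. At 2 h those were control replicates 1 (-0.32) and 2 (-0.28) and CX-5461 replicates 2 (-0.33) and 3 (-0.32), and at 8 h control replicates 1 (-0.26) and 2 (-0.23) and CX-5461 replicates 2 (-0.27) and 3 (-0.23). After centring the 2 h difference with CX-5461 was -0.19 (adjusted p = 0.071) and the 8 h difference -0.50 (adjusted p = 6.8e-06), with all 3 libraries below control. An antisense transcript, Gm47320, overlaps Acvr2b, and whether strand was used in counting is not given in the sources used here.

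Smad2, the receptor-activated transducer of the pathway, fell at 4 h with both inhibitors. Control libraries had 6.38, 6.44 and 6.28. With BMH-21 the levels were 6.11, 6.36 and 6.27 at 2 h, 5.85, 5.58 and 5.49 at 4 h, and 5.80, 5.41 and 5.75 at 8 h. With CX-5461 they were 6.42, 6.22 and 6.22 at 2 h, 5.74, 6.01 and 5.86 at 4 h, and 6.37, 6.29 and 6.35 at 8 h. Libraries of both inhibitors at 4 h and of BMH-21 at 8 h were below all control libraries, while 2 h libraries and CX-5461 8 h libraries overlapped with control. The difference from control at 4 h was -0.73 with BMH-21 and -0.50 with CX-5461 (SE 0.11, limma adjusted p = 4.8e-09 and 4.1e-05). At 8 h it was -0.71 with BMH-21 (adjusted p = 5.4e-09; -0.50 after centring). For CX-5461 at 8 h it was -0.03 as deposited (adjusted p = 0.85) and -0.24 after centring (adjusted p = 1.6e-05). With median-ratio factors that difference was -0.14 (adjusted p = 0.0046). At 2 h the differences were -0.12 with BMH-21 and -0.08 with CX-5461 (adjusted p = 0.52 and 0.58).

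Foxh1, the forkhead partner of the SMADs, had the largest fall of the 9 genes in any comparison with control. Its control levels were 6.15, 6.17 and 6.00. BMH-21 libraries had 5.80, 6.08 and 5.89 at 2 h, 5.55, 5.21 and 5.25 at 4 h, and 4.14, 3.91 and 4.06 at 8 h. CX-5461 libraries had 6.04, 5.88 and 5.78 at 2 h, 5.39, 5.51 and 5.38 at 4 h, and 5.42, 5.39 and 5.29 at 8 h. Libraries of both inhibitors overlapped with control at 2 h, lay below it at 4 h, and parted at 8 h, when every BMH-21 library was below every CX-5461 library. With BMH-21 Foxh1 fell to 0.239 of control at 8 h (log2 difference -2.07, SE 0.11, limma adjusted p = 6.2e-37; -1.86 after centring). The other 4 and 8 h differences were -0.77 with BMH-21 at 4 h and, with CX-5461, -0.68 at 4 h and -0.74 at 8 h (adjusted p = 6.7e-10, 3.5e-08 and 4.8e-09). Between 4 and 8 h it fell by -1.30 with BMH-21 (adjusted p = 4e-20) and differed by -0.06 with CX-5461 (adjusted p = 0.66), or by -1.24 and -0.43 after centring.

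Lefty1, a secreted antagonist of Nodal, rose only with CX-5461 among the deposited-scale comparisons with control. Its control levels were 6.21, 6.14 and 6.04. With BMH-21 they were 5.91, 5.95 and 6.13 at 2 h, 6.08, 5.73 and 5.93 at 4 h, and 6.25, 5.95 and 5.78 at 8 h. With CX-5461 they were 6.07, 5.87 and 6.10 at 2 h, 6.87, 7.10 and 6.87 at 4 h, and 8.48, 8.25 and 8.42 at 8 h. BMH-21 libraries overlapped with control at every time, as did those of CX-5461 at 2 h, while CX-5461 libraries at 4 and 8 h lay above all others, those at 8 h highest. Lefty1 was 1.76-fold above control with CX-5461 at 4 h (log2 difference 0.81, SE 0.11, limma adjusted p = 1.1e-10) and 4.76-fold at 8 h (2.25, SE 0.11, adjusted p = 7.7e-40; 2.04 after centring). The 8 h libraries of CX-5461 held between 14787 and 17623 Lefty1 reads. With BMH-21 the differences were -0.13 at 2 h, -0.22 at 4 h and -0.14 at 8 h (adjusted p = 0.47, 0.071 and 0.25). The 8 h value turned to 0.08 after centring and to 0.22 with median-ratio factors (adjusted p = 0.022), and it was -0.26 and called without BMH-21 8 h replicate 1. The 4 h value was -0.30 and called without BMH-21 4 h replicate 1.

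Lefty2, the other Lefty gene, fell with BMH-21 and rose late with CX-5461. Its levels in control libraries were 7.16, 7.01 and 6.99. With BMH-21 they were 6.62, 6.81 and 7.001 at 2 h, 6.45, 5.97 and 6.08 at 4 h, and 6.12, 5.67 and 5.73 at 8 h. With CX-5461 they were 6.93, 6.69 and 6.97 at 2 h, 6.67, 6.94 and 6.69 at 4 h, and 8.53, 8.31 and 8.49 at 8 h. CX-5461 libraries were below control at 2 and 4 h and above it at 8 h, whereas BMH-21 libraries were below it at 4 and 8 h. The 2 h difference with CX-5461 was not called (-0.19, limma adjusted p = 0.18), and after centring it was -0.04 with overlapping libraries. The fall with BMH-21 was -0.89 at 4 h and -1.21 at 8 h (SE 0.11, limma adjusted p = 8e-12 and 8.1e-19). With CX-5461 at 8 h Lefty2 was 2.62-fold above control (log2 difference 1.39, SE 0.11, adjusted p = 5.4e-22; 1.17 after centring). At 4 h with CX-5461 it differed by -0.29 (adjusted p = 0.018), which was -0.13 after centring (adjusted p = 0.17) and lost its call without control replicate 1 (-0.24) or CX-5461 4 h replicate 1 (-0.24) or 3 (-0.25). Between 4 and 8 h the difference with BMH-21 was -0.33 (adjusted p = 0.0099), a call lost without BMH-21 4 h replicate 1 (-0.18) and without BMH-21 8 h replicate 2 (-0.24) or 3 (-0.27).

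Differences between 2 genes in 1 library do not depend on its scaling, and they are read here only between groups. Lefty1 minus Nodal was 0.06 ± 0.01 (SD, n = 3) in control libraries. It was -1.19 ± 0.11 with BMH-21 and -1.10 ± 0.14 with CX-5461 at 2 h, then -1.28 ± 0.08 and -0.20 ± 0.04 at 4 h, and -0.65 ± 0.18 and 1.33 ± 0.10 at 8 h. Both inhibitors thus had less Lefty1 relative to Nodal than control cells at 2 h, and at 8 h the relation stood below the control with BMH-21 and above it with CX-5461. Lefty2 minus Nodal went from 0.99 ± 0.06 in control libraries to -0.38 ± 0.13 with BMH-21 and -0.25 ± 0.15 with CX-5461 at 2 h. At 8 h it was -0.80 ± 0.17 with BMH-21 and 1.39 ± 0.10 with CX-5461. Lefty1 minus Lefty2 moved from -0.92 ± 0.04 in the control to 0.15 ± 0.12 and -0.06 ± 0.01 with BMH-21 and CX-5461 at 8 h. On the scale per kilobase, Lefty1 stood below Lefty2 in the control (5.32 against 5.67) and above it at 8 h, at 5.18 against 4.46 with BMH-21 and 7.57 against 7.06 with CX-5461.

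**Figure D2:**
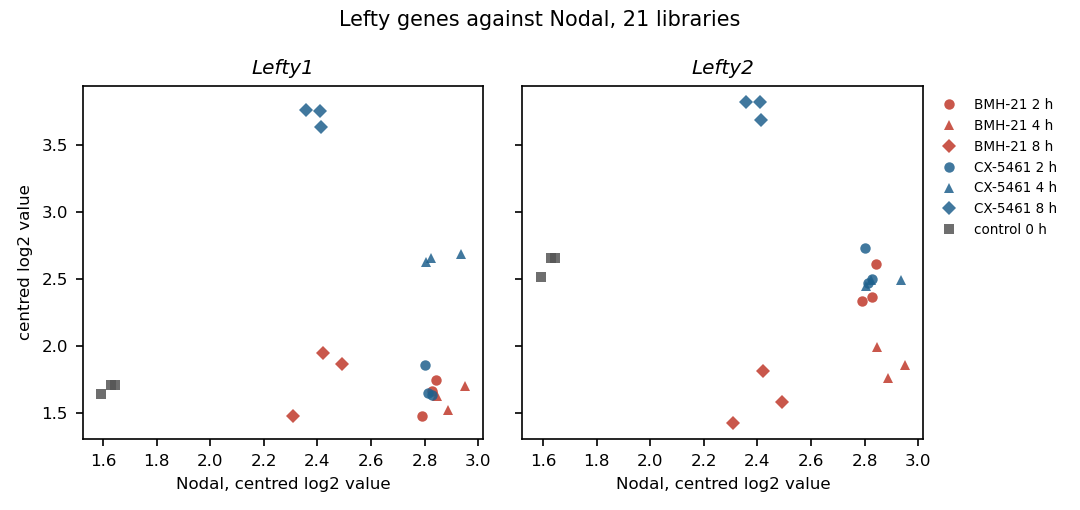
Centred log2 level of Lefty1 (left) and Lefty2 (right) on the vertical axis against the centred log2 level of Nodal on the horizontal axis, each point 1 of the 21 libraries, with colours and shapes for the groups. The 3 control libraries lie at the lowest Nodal level (mean 1.62), the CX-5461 libraries at 8 h stand at the top of both panels (means 3.72 and 3.78), and the BMH-21 libraries at 8 h have about the same Nodal level as these (2.41 against 2.39) with Lefty means of 1.76 and 1.61.

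Skil encodes SnoN, a corepressor that binds SMADs and is itself a TGF-β family target. Control libraries had levels of 7.73, 7.75 and 7.53. BMH-21 libraries had 6.86, 7.13 and 7.10 at 2 h, 7.23, 6.94 and 6.85 at 4 h, and 7.37, 6.86 and 7.25 at 8 h. CX-5461 libraries had 7.14, 6.95 and 7.05 at 2 h, 7.03, 7.51 and 7.15 at 4 h, and 8.05, 7.78 and 7.98 at 8 h. Skil was lower in every treated library than in every control library, except in CX-5461 libraries at 8 h, which were all above the control. The fall was already present at 2 h, where the difference was -0.64 for BMH-21 and -0.62 for CX-5461 (SE 0.11, limma adjusted p = 1.9e-06 and 3.2e-06). It was -0.66 and -0.44 at 4 h (adjusted p = 1.1e-07 and 3e-04; the latter -0.28 after centring) and -0.51 with BMH-21 at 8 h (adjusted p = 2e-05; -0.30 after centring). For CX-5461 at 8 h the difference was 0.27 (adjusted p = 0.039) and 0.05 after centring (adjusted p = 0.47). That call was also lost without control replicate 1 (0.29) or 3 (0.20) and without CX-5461 8 h replicate 1 (0.21) or 3 (0.24).

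Counted over the 9 genes, 4 were called with BMH-21 at 2 h, against 19.7% of all tested genes. Of the 4, 1 was higher and 3 were lower, beside 8.48% and 11.2% of all tested genes. Leaving out BMH-21 2 h replicate 1 or control replicate 2 left 2 of these calls. At 4 h with BMH-21, 8 were called (67% of all tested genes), 1 of them higher (22.1%) and 7 lower (44.9%). The split at 8 h was the same, where 81.5% of all tested genes were called, 24.5% higher and 56.9% lower. Nodal was the gene that was higher at each of these times. With CX-5461 at 2 h, 5 were called (27.9% of all tested genes), Nodal higher (7.45%) and 4 lower (20.5%), and 3 calls were left in the fits without 1 library that kept fewest. All 9 were called at 4 h (70.9%), Nodal and Lefty1 higher (19.8%) and the other 7 lower (51.2%). By 8 h 8 were called (49.4%), of which Nodal, Tdgf1, Lefty1, Lefty2 and Skil were higher (35.1%) and Gdf3, Acvr2b and Foxh1 lower (14.3%). After centring, 4 were higher and 4 lower there, beside 29.3% and 44.7% of all tested genes. The median difference over the 9 genes was -0.71 with BMH-21 at 8 h, beside -0.40 over all tested genes, and 0.27 with CX-5461 at 8 h, beside 0.11. From 4 h on so large a share of all genes was called that these counts alone say little about the 9.

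**Figure D3:**
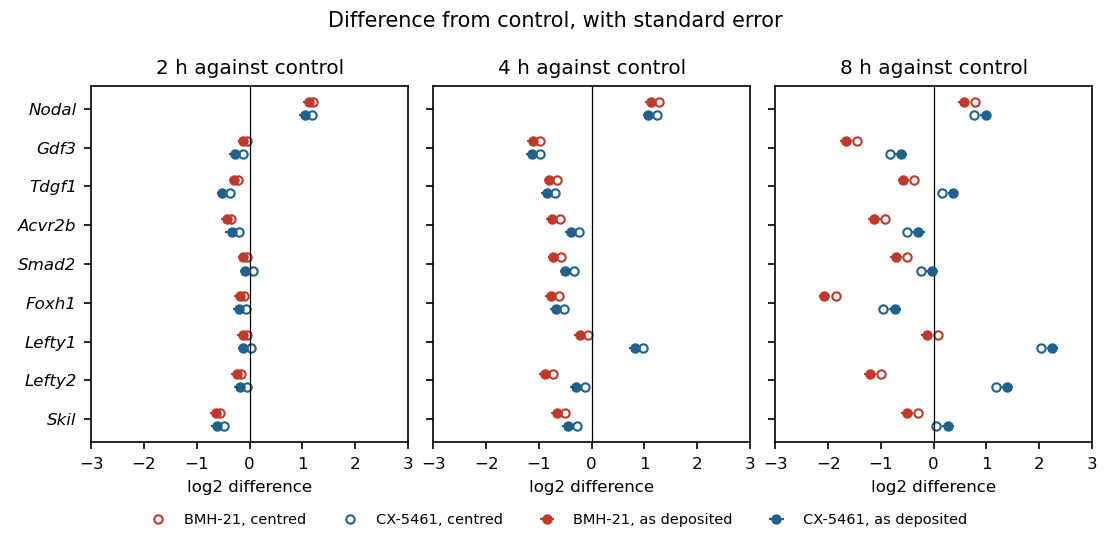
Log2 difference from control 0 h (horizontal axis) of the 9 genes at 2, 4 and 8 h of BMH-21 and CX-5461, with filled points and SE bars from limma for values as deposited and open points for values after centring. Nodal is above 0 in all 6 comparisons, and Foxh1 with BMH-21 at 8 h (-2.07) and Lefty1 with CX-5461 at 8 h (2.25) mark the ends of the range as deposited.

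Compared directly at the same dose and time, the 2 inhibitors were told apart from 4 h on. At 2 h none of the 9 was called different (0 by limma, 1 at an unadjusted p under 0.05, 0 with voom weights), against 3.99% of all tested genes. The 95% interval of the BMH-21 minus CX-5461 difference was -0.13 to 0.28 for Nodal and -0.23 to 0.20 for Lefty1, so differences of those sizes cannot be told from none as deposited; after centring the Nodal interval was -0.08 to 0.10. The gene with the unadjusted p under 0.05 was Tdgf1 (0.22, interval 0.02 to 0.42, adjusted p = 0.26), which was called after centring (0.15, adjusted p = 0.0064). At 4 h 3 of 9 were lower with BMH-21 (17.8% of all tested genes called, 8.49% lower). These were Lefty1 (-1.03, SE 0.11, adjusted p = 1.7e-13), Lefty2 (-0.60, adjusted p = 1.9e-05) and Acvr2b (-0.36, adjusted p = 0.025). The Acvr2b call was lost without BMH-21 4 h replicate 3 (-0.26) and without CX-5461 4 h replicate 2 (-0.30) or 3 (-0.37). Without BMH-21 4 h replicate 1, Smad2 (-0.34) and Skil (-0.33) were called as well. After centring 5 of 9 were lower (18.5% of all tested genes), with Smad2 at -0.24 (adjusted p = 7.4e-05) and Skil at -0.23 (adjusted p = 0.0047). Nodal differed by 0.05 at 4 h (interval -0.16 to 0.26).

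At 8 h all 9 were lower with BMH-21 than with CX-5461, against 79.2% of all tested genes called and 67.2% called lower. Lefty2 and Lefty1 differed most, at 0.165 and 0.191 of the CX-5461 level (log2 differences -2.60 and -2.39, SE 0.11, limma adjusted p = 9.4e-44 and 2.3e-41). Foxh1 (-1.33), Gdf3 (-1.04), Tdgf1 (-0.95), Acvr2b (-0.84), Skil (-0.78) and Smad2 (-0.68) followed. After centring 8 of the 9 were called lower (40.6% of all tested genes), Lefty2 by -2.17, Lefty1 by -1.96 and Foxh1 by -0.90, and the exception was Nodal. The other 5 centred differences were -0.62 for Gdf3, -0.52 for Tdgf1, -0.41 for Acvr2b, -0.35 for Skil and -0.25 for Smad2.

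The steps from 4 to 8 h also differed between the inhibitors. With BMH-21, 5 of 9 were called lower at 8 h than at 4 h (56.4% of all tested genes called, 37.8% lower): Nodal, Gdf3, Acvr2b, Foxh1 and Lefty2. After centring the same step had 2 higher and 5 lower, beside 28.3% and 42.2% of all tested genes, since Tdgf1 (0.28, limma adjusted p = 4.4e-07) and Skil (0.21, adjusted p = 0.0043) were called higher. With median-ratio factors the Lefty2 step was -0.15 (adjusted p = 0.12), and Smad2 (0.19) and Lefty1 (0.26) were called higher too. The Acvr2b step of -0.37 (limma adjusted p = 0.0058) lost its call without BMH-21 8 h replicate 2 (-0.25). With CX-5461, 6 of 9 were called higher (63.7% of all tested genes called, 58.8% higher): Gdf3, Tdgf1, Smad2, Lefty1, Lefty2 and Skil. After centring that step had 5 higher and 3 lower, beside 25.8% and 32% of all tested genes: Nodal (-0.46), Acvr2b (-0.27, adjusted p = 0.0068) and Foxh1 (-0.43, adjusted p = 4.5e-08) were called lower, and Smad2 lost its call (0.09, adjusted p = 0.063). Lefty2 rose 3.20-fold over that step (log2 difference 1.68, SE 0.11, adjusted p = 2e-26) and Lefty1 2.71-fold (1.44, SE 0.11, adjusted p = 1.3e-22). After centring Lefty2 rose by 1.302 and Lefty1 by 1.06. The difference of the 2 steps was called for all 9 as deposited (69.4% of all tested genes called, 61.4% lower) and for 5 of 9 after centring (36.2% lower): Gdf3, Tdgf1, Foxh1, Lefty1 and Lefty2.

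Another 39 genes of the pathway were listed by role, of which 38 were in the table and 33 passed the filter. Of these 33, 25 were called with BMH-21 at 8 h (10 higher, 15 lower) and 18 with CX-5461 at 8 h (16 higher, 2 lower), beside 81.5% and 49.4% of all tested genes called. The median over the 33 was -0.31 and 0.33, beside -0.40 and 0.11 over all tested genes. After centring the counts were 12 higher and 13 lower with BMH-21, and 14 higher and 9 lower with CX-5461. For BMH-21 at 4 h, 23 passed the test (67% of all tested genes), 9 upward (22.1%) and 14 downward (44.9%). For CX-5461 at 4 h, 25 did (70.9%), 11 upward (19.8%) and 14 downward (51.2%). The 2 h counts, beside 19.7% and 27.9%, were 7 with BMH-21 (3 upward, beside 8.48%) and 10 with CX-5461 (4 upward, beside 7.45%). The latter count was 5 in the fit without 1 library that kept fewest. These counts include Lhx1 and Pcsk5, which had no control library above the filter's minimum and passed it only through treated libraries, so that a difference from control was partly fixed by the filter.

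Among ligands and processing enzymes, Inhbb, the activin beta B subunit, was lower in all 6 comparisons with control, from a log2 level of 5.49 ± 0.07 (SD, n = 3) in the control to 2.90 ± 0.09 with BMH-21 at 8 h (difference -2.59, SE 0.11, limma adjusted p = 9.3e-45). With CX-5461 it fell by -0.85 at 2 h, -1.06 at 4 h and -0.57 at 8 h. Pcsk5, a proprotein convertase, had 26 to 33 reads in control libraries and was higher at 8 h with BMH-21 (2.01) and CX-5461 (1.20), values given without a test because it passed the filter only through treated libraries at 4 and 8 h. Furin, another convertase, fell with BMH-21 at 2 h (-0.61, limma adjusted p = 4.2e-05). At 8 h it was lower with BMH-21 (-1.01, adjusted p = 8.5e-13) and higher with CX-5461 (0.69, adjusted p = 8e-07). Tgfbr1, a type I receptor gene, rose with BMH-21 by 0.52 at 2 h, 1.56 at 4 h and 1.58 at 8 h. With CX-5461 its level was 5.69 ± 0.15 (SD, n = 3) at 2 h, 6.27 ± 0.16 at 4 h and 5.70 ± 0.08 at 8 h. The control level was 5.31 ± 0.15, and all CX-5461 libraries stood above all control libraries at each time. Its rise of 0.39 with CX-5461 at 2 h lost its call without control replicate 3 or CX-5461 2 h replicate 1 (0.30 in both fits). Acvr1b, another type I receptor gene, was not called with BMH-21 at 2, 4 or 8 h. Its differences there were -0.26, -0.03 and -0.23 (limma adjusted p = 0.10, 0.84 and 0.058). After centring it was called at 2 h (-0.19, adjusted p = 0.006) and 4 h (0.12, adjusted p = 0.038). With CX-5461 the Acvr1b level was 4.60 ± 0.18 (SD, n = 3) at 2 h, 4.78 ± 0.17 at 4 h and 5.08 ± 0.05 at 8 h, against 4.93 ± 0.06 in the control. These CX-5461 libraries lay below all control libraries at 2 h, overlapped with them at 4 h and lay above them at 8 h.

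Among the 5 transducers and partners, 4 were lower with BMH-21 at 8 h (3 after centring) and Smad3 was higher. Over all tested genes 56.9% were called lower and 24.5% higher there, or 51.3% and 33.3% after centring. Smad3, the other receptor-activated SMAD of the pathway, had a control level of 3.27 ± 0.11 (SD, n = 3, 421 to 470 reads). Its level reached 5.43 ± 0.26 with BMH-21 at 8 h, a difference of 2.16 (SE 0.12, limma adjusted p = 2.1e-35). With CX-5461 it was higher by 0.48 at 2 h, 2.07 at 4 h and 1.05 at 8 h. Smad2 and Smad3 therefore stood on opposite sides of the control at 4 h with both inhibitors. Zfyve9, known as SARA, an anchor that brings SMADs to the receptors, fell with BMH-21 at 8 h (-1.53, adjusted p = 2e-21).

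Of 15 inhibitors and feedback genes, 4 were higher and 7 lower with BMH-21 at 8 h (6 and 7 after centring), and 8 were higher and 1 lower with CX-5461, or 7 higher and 6 lower after centring. Over all tested genes the shares at 8 h were 24.5% higher and 56.9% lower under BMH-21, against 35.1% and 14.3% under CX-5461. After centring these shares were 33.3% and 51.3% under BMH-21, against 29.3% and 44.7% under CX-5461. Tgif1 and Tgif2, homeobox corepressors of SMAD targets, fell with both inhibitors at 2 and 4 h. At 8 h Tgif2 differed by -1.50 under BMH-21 and -0.42 under CX-5461, while Tgif1 differed by -0.82 under BMH-21 and by 0.11 (limma adjusted p = 0.40) under CX-5461. After centring this last difference was -0.10 (adjusted p = 0.038). The 2 h fall of Tgif2 with CX-5461 (-0.37, limma adjusted p = 0.0069) lost its call without CX-5461 2 h replicate 2 (-0.33). Smad7, an inhibitory SMAD, fell with BMH-21 at 8 h (-0.64, adjusted p = 8.7e-08) and rose with CX-5461 (0.81, adjusted p = 2.1e-10). Smad7 and Acvr1b were chosen for naming after their values were seen. The rule for naming, given below, named Furin with BMH-21 at 2 h and Eomes with CX-5461 at 4 h. The 8 h values of Furin and Eomes were chosen after they were seen.

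Of 5 mesendoderm genes that passed the filter, Lhx1 was higher in all 6 comparisons with control, by 3.71 with BMH-21 at 8 h and 1.94 with CX-5461 at 8 h (SE 0.28). It is given without a test, as it passed the filter only through BMH-21 libraries at 4 and 8 h and CX-5461 libraries at 4 h. Its control libraries held 6 to 12 reads and its BMH-21 libraries at 8 h 123 to 201, so the size of this difference is imprecise. Eomes, a T-box factor, fell with CX-5461 at 4 h (-1.05, adjusted p = 8.1e-09), rose with it at 8 h (0.87, adjusted p = 1.8e-06) and fell with BMH-21 at 8 h (-1.10, adjusted p = 1e-09).

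**Figure D4:**
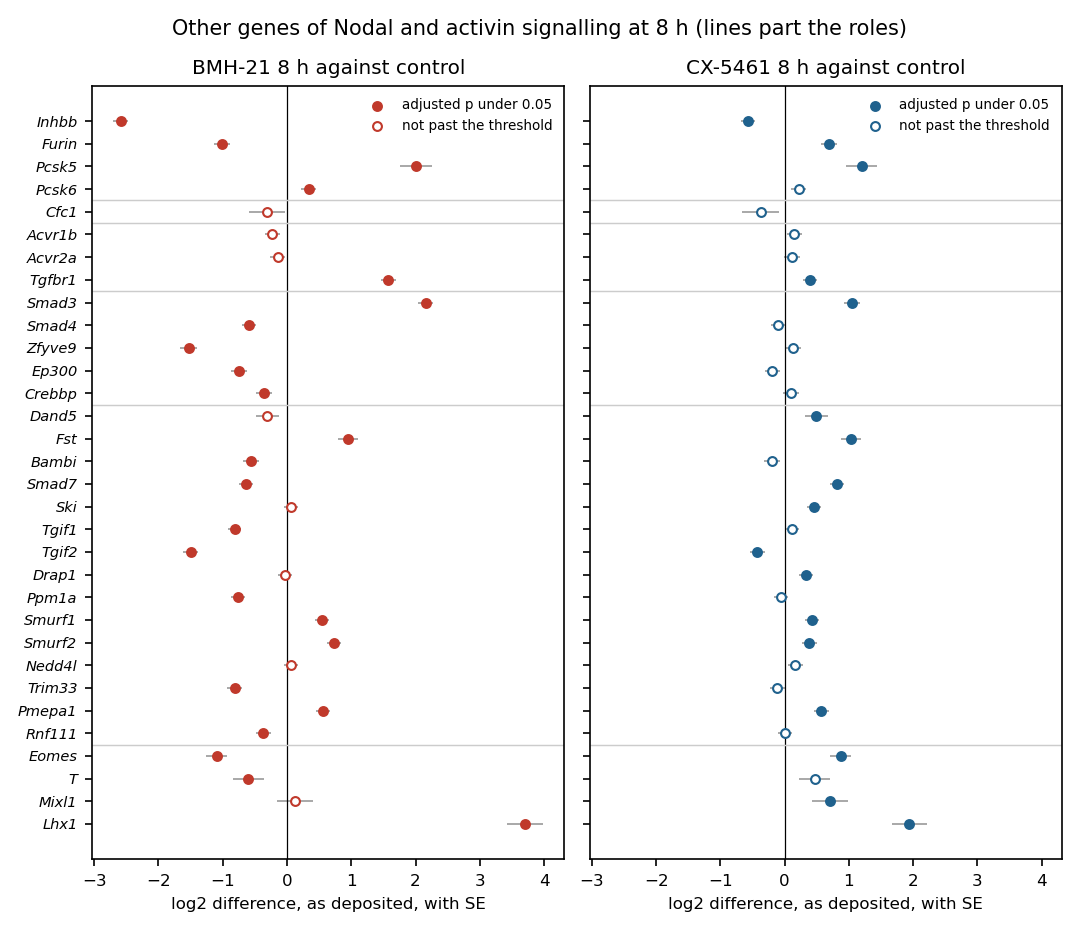
Log2 difference from control at 8 h (horizontal axis, as deposited, bars are the SE from limma) of 32 of the other pathway genes tested, BMH-21 left and CX-5461 right, with filled points for an adjusted p under 0.05 and grey lines between roles. Both panels share the same 3 control libraries; Inhbb (-2.59) and Lhx1 (3.71) are the ends of the range with BMH-21, and 2 genes lie to the left of 0 as filled points with CX-5461.

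The cell type labels were checked on marker lists. All 6 markers of embryonic stem cells were detected in every library, and their summed level, on the linear scale behind the deposited log2 values, was 4284 to 4857 in control libraries, 1611 to 1819 with BMH-21 at 8 h and 3374 to 3676 with CX-5461 at 8 h. A list of 4 primed epiblast genes summed to 675 to 744 in the control, 125 to 155 with BMH-21 at 8 h and 371 to 411 with CX-5461 at 8 h. Trophoblast markers, which include Eomes, summed to 100.5 to 112.0, 129 to 153 and 155 to 175 in the same 3 groups. At 4 h the trophoblast sum was below all control libraries, at 64.9 to 80.4 under BMH-21 and at 62.2 to 74.3 under CX-5461. Primitive endoderm markers summed to 16.9 to 20.1 in the control, and their sum stood above it in BMH-21 libraries at 4 h (22.6 to 29.6) and in CX-5461 libraries at 8 h (21.4 to 22.4). Such sums can rest on few of their members and do not describe each of them. Over all libraries Pdgfra ranged from a log2 level of 1.00 to 3.70 (control mean 1.15). Dab2 ranged from 1.54 to 3.01 (control mean 2.86) and Sox7 from -0.02 to 2.23 (control mean 1.51). Fibroblast markers summed to 30.2 to 34.6 in the control, and to 38.7 to 46.5 and 42.9 to 44.2 at 8 h with BMH-21 and CX-5461. At 4 h the BMH-21 libraries had 43.4 to 53.1. Of the fibroblast genes, Lum had 0 to 2 reads and Postn 0 to 14 in any library. The stem cell sum was below all control libraries at 2 h already (3322 to 3725 for BMH-21, 3040 to 3601 for CX-5461) and at 4 h (2175 to 2497 and 2281 to 2732). The primed epiblast sum was below them too, at 553 to 671 and 521 to 612.0 after 2 h and at 366 to 462 and 369.9 to 451 after 4 h. These sums differed from control alongside the Nodal pathway genes at all 3 times, and their part in those results was not tested. In bulk RNA, fewer cells of a type and less RNA per cell cannot be told apart.

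The genes whose pattern was most like that of Nodal were sought over the 7 group means of centred log2 values, among genes spanning at least 1 log2 unit. They were Ak1 (r = 0.985), Arc (r = 0.977), Il25 (r = 0.973), Polk (r = 0.970) and Sp6 (r = 0.963). Il25 had a control level of -1.68 ± 0.03 (SD, n = 3), under the filter's minimum, and passed the filter only through treated libraries. Its likeness to Nodal was therefore partly fixed by the filter. Polk, a translesion DNA polymerase, had a log2 level of 3.73 ± 0.14 (SD, n = 3) in the control, 5.30 ± 0.17 with BMH-21 and 5.37 ± 0.15 with CX-5461 at 2 h, and 5.08 ± 0.21 and 5.05 ± 0.08 at 8 h. Sp6, a zinc-finger factor, went from 3.04 ± 0.09 to 5.04 ± 0.14 and 5.28 ± 0.18 at 2 h. None of the 5 was on the list of pathway genes, and these correlations describe group means that share libraries and scaling.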

How the data were processed

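Poly(A) RNA libraries from 21 mouse E14 cell samples, 3 in each of 7 groups, were read from 1 deposited table of 20900 genes. Its log2 values were deposited by the authors. They fit reads plus an offset of 0.5, divided by a size for each library, and gave back whole reads to within 1.7e-08 for every value. Per the submitters' processing notes, Trim Galore 0.5.0, TopHat2 2.1.1, R 4.0.5, DESeq2 1.30.1, edgeR 3.32.1 and limma 3.46.0 were used with build mm10; the counting program and annotation are not given in the sources used here. Groups came from the sample titles.

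Genes with a log2 value above 0 in at least 3 of 21 libraries (14666) were fitted in limma 3.58.1 (R 4.3.3) with 1 mean per group over all libraries and eBayes with a mean-variance trend. Benjamini-Hochberg adjustment ran over all 14666 genes, with a threshold of 0.05. The 6234 genes under the filter were set aside. Intervals are at 95%. The scripts were tested on simulated data. The 9 genes, the 39 other pathway genes and the marker lists were chosen with earlier results of these data known. All 9 were named in every comparison, with up to 3 of the largest rises and falls per comparison with control among the other pathway genes, and the 5 genes most like Nodal. Alternatives were centring, median-ratio factors, no filter, a stricter filter, an offset of 5 reads, voom weights, no trend, fits on the compared groups alone, a replicate block and leaving out each library. Likeness to Nodal under other scalings was added after seeing the data. Sequences and positions came from GENCODE M21 (GRCm38). Protein sequences were not analysed here, nor was Gdf1. The values of 1 other pathway gene that this rule names are not reported or plotted here.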

Additional observations from a re-analysis of the deposited data

Results flagged for a closer look

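The change from 4 h to 8 h differed between the inhibitors for all 9 genes as deposited, by an interaction term in limma; values are BMH-21 minus CX-5461 on the log2 scale, with adjusted p over all tested genes. The background was large, since 69.4% of all tested genes were called for this difference and 61.4% were lower, with a median of -0.52 over all tested genes. The Lefty genes and Foxh1 had the widest differences: Lefty2 -2.002 (adjusted p = 2.7e-21), Lefty1 -1.35 (7.1e-13) and Foxh1 -1.24 (2.2e-11). Gdf3 had -1.06 (adjusted p = 2.4e-09) and Tdgf1 -0.9985 (adjusted p = 1.8e-09).

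The other 4 were Skil at -0.56 (limma adjusted p = 0.0013), Acvr2b at -0.48 (adjusted p = 0.01), Nodal at -0.46 (adjusted p = 0.0042) and Smad2 at -0.45 (adjusted p = 0.0079). After centring these 4 were -0.12, -0.04, -0.02 and -0.01 and were no longer called, whereas Lefty2 (-1.57), Lefty1 (-0.92), Foxh1 (-0.81), Gdf3 (-0.62) and Tdgf1 (-0.56) were. Without BMH-21 8 h replicate 2, Acvr2b (-0.35) and Smad2 (-0.33) were not called as deposited.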

How the results depend on the processing

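Of 108 tests on the 9 genes (12 comparisons each), 74 were called as deposited, 65 of them also after centring with the same sign, and 57 kept their call and sign under every alternative run. Acvr2b, of the 9 the gene with the fewest reads, had at least 519 in every library, while Lhx1 had as few as 6.

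Turned in sign by centring and by median-ratio factors, in that order: Lefty1 with BMH-21 at 8 h (0.0766, 0.2215), Smad2 (0.0682, 0.1045) and Lefty1 (0.0279, 0.0642) with CX-5461 at 2 h, Foxh1 between inhibitors at 2 h (-0.0461, -0.0749), Nodal between inhibitors at 8 h (0.0157, 0.0606) and Acvr2b with CX-5461 from 4 to 8 h (-0.2689, -0.2605). Median-ratio factors alone turned Nodal between inhibitors at 2 h (-0.0213), Nodal (-0.0179), Gdf3 (-0.0549) and Tdgf1 (-0.0156) at 4 h, and Nodal (0.0785), Acvr2b (0.0611) and Smad2 (0.0891) in the difference of steps. Both alternatives moved all genes of a library by the same amount, and why the deposited scaling differed from them was not tested.

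Some values that were not called changed sign over fits leaving out 1 library. Smad2 with CX-5461 at 8 h ranged from -0.0722 to 0.0079 (without control replicate 2). Between inhibitors at 2 h the ranges were -0.1404 to 0.0319 for Acvr2b, -0.0983 to 0.029 for Smad2, -0.0554 to 0.0939 for Foxh1, -0.0853 to 0.0305 for Lefty1, -0.1512 to 0.0414 for Lefty2 and -0.0664 to 0.0699 for Skil. At 4 h they were -0.0061 to 0.1112 for Nodal, -0.0501 to 0.0929 for Gdf3 and -0.0311 to 0.1445 for Tdgf1. For the BMH-21 step they were -0.0592 to 0.1391 for Smad2 and -0.0451 to 0.1895 for Lefty1.

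Counts of the 9 genes called ranged, over fits leaving out 1 library, from 2 to 4 with BMH-21 at 2 h, 3 to 5 with CX-5461 at 2 h, 2 to 5 between inhibitors at 4 h and 7 to 9 for the difference of steps. Centring and median-ratio factors gave 1 and 2 between inhibitors at 2 h, 5 and 6 at 4 h, and 5 and 5 for the difference of steps. Of all tested genes they called 15.4% and 15.1% between inhibitors at 2 h, and 45.8% and 41.7% at 4 h. For the difference of steps these shares were 60.2% and 57.8%. Median-ratio factors gave 3 with CX-5461 at 2 h, as did no trend, and 8 for the BMH-21 step (4 higher, 4 lower). They called 31.6% of all tested genes with CX-5461 at 2 h. For the BMH-21 step they called 69.2%, with 36.7% higher and 32.5% lower. Of the 33 other pathway genes, centring and median-ratio factors called 13 and 13 with BMH-21 at 2 h, 11 and 10 between inhibitors at 2 h (2 without a trend, main 4), 17 and 16 at 4 h (main 8), and 22 and 22 for the BMH-21 step (main 13). Over all tested genes, centring and median-ratio factors called 36% and 35.7% with BMH-21 at 2 h, and 70.5% and 69.2% for the BMH-21 step. Their shares between inhibitors are given above. For the 33 genes, leaving out 1 library gave 5 to 10 with CX-5461 at 2 h and 1 to 4 between inhibitors at 2 h.

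Replicate numbers did not pair libraries: deviations of same-numbered libraries correlated between -0.251 and 0.109 (median 0.002, 63 pairs). With the replicate block, the call of Gdf3 with CX-5461 at 2 h was lost (-0.28, limma adjusted p = 0.052), leaving 4 of 9, and no other call on the 9 genes changed. Likeness to Nodal on deposited values was 0.990 for Ak1 and 0.909 for Sp6.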
